A study of Homo sapiens with 16 samples.

Results

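Chromatin immunoprecipitation followed by sequencing (ChIP-seq) of NF-κB subunits left peaks on scaffolds, the pieces of the human genome assembly that have not been built into a chromosome. An unlocalised scaffold has been assigned to a chromosome without a position, and an unplaced scaffold has not been assigned at all. Members were the entries of the 12 peak lists whose sequence name starts with KI270 or GL000 and whose length is at most 5000 bp. There were 19501 of them among 6266841 entries in all, or 0.311%. They lay on 150 scaffolds, of which 40 are unlocalised and 110 unplaced by general knowledge of the assembly. A peak listed more than once for several summits was counted once, which left 19310 scaffold peaks.

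The cells were T47D, an established human breast cancer line of the Luminal A type. They were transduced with lentivirus carrying DAB2IP targeting shRNAs (knockdown) or a control construct (control). The authors' methods name an empty vector as the control, and their results on T47D cells a scrambled shRNA. Both kinds of cells were selected with puromycin before fixation with disuccinimidyl glutarate and formaldehyde. The DAB2IP protein acts as a RasGAP and so turns Ras off. Antibodies against RELA (p65), RELB and NFKB2 were each used in 2 knockdown and 2 control libraries, and the 4 input libraries have no list of their own here. The labels do not say which shRNA each knockdown library carried, nor whether replicates came from separate cultures, so spread between replicates may be technical. A preparation here means the 3 libraries that share a condition and a replicate number. By the labels they also share an input library.

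NF-κB proteins are held in the cytoplasm by inhibitors and enter the nucleus on signalling, where dimers bind short DNA sites near target genes. RELA belongs to the canonical arm of the pathway, and RELB with the processed form of NFKB2 to the noncanonical arm. Scaffolds are rich in sequence that is hard to assemble, above all satellite DNA, tandem repeats found around centromeres, and ribosomal DNA, the repeated units that encode the RNA of the ribosome. The genome holds many more copies of such sequence than the assembly, so a scaffold can collect reads from many loci. GL000220.1 and KI270733.1 are known for 45S ribosomal DNA, and KI270442.1, KI270438.1, GL000216.2 and GL000226.1 for satellite DNA. These classes are general knowledge and were not checked against sequence, and scaffolds not in these groups were given no class.

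The 12 lists differed in size, and 2 stood apart. Covered bases, the bases under at least 1 peak, came to 119.7 kb on scaffolds in knockdown RELA replicate 1 and 85.0 kb in knockdown RELB replicate 1, against 370.4 to 525.2 kb in the other libraries. On chromosomes 1 to 22, X and Y the same 2 lists covered 21.4 and 14.8 Mb, against 118.8 to 163.6 Mb. The number of reads per library is not given in the sources used here. Listed peaks were weak: the median summit on scaffolds held 3 to 6 fragments, a number solved from each peak's fold and p-value, and on chromosomes 3 to 4.

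Scaffolds took a small share of what was called and a much larger share of what was called with confidence. Their share of covered bases was 0.558% in knockdown RELA replicate 1, 0.301% in knockdown RELA replicate 2, 0.33% and 0.383% in the control RELA libraries, 0.572% and 0.285% in the knockdown RELB libraries, 0.303% and 0.336% in the control RELB libraries, 0.320% and 0.301% in the knockdown NFKB2 libraries and 0.305% and 0.334% in the control NFKB2 libraries. The 2 short lists were the highest, and the other 10 lay between 0.285% and 0.383%. For scale, scaffolds made up 0.349% of the sequence reached by any list, taken as the farthest base called on each scaffold or chromosome. That reach was 10.7 Mb on scaffolds, and it understates their length.

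Peaks with a q-value (the multiple-testing adjusted p) of at most 0.05 were rare everywhere. Over chromosomes and scaffolds together 0.0296% of all peaks met it. Of the scaffold peaks, 291 did, beside 1540 on the chromosomes, so that scaffolds held 15.9% of such peaks. By library the share ran from 10.8% (17 of the peaks on scaffolds against 140 on chromosomes, exact 95% interval 6.44 to 16.8%) in control RELB replicate 2 to 22.5% (23 against 79, interval 14.9 to 31.9%) in knockdown RELB replicate 1. These intervals cover counting error only. In each library the scaffold share of q-passing peaks was 32.2 to 60.2 times its share of covered bases.

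**Figure D1:**
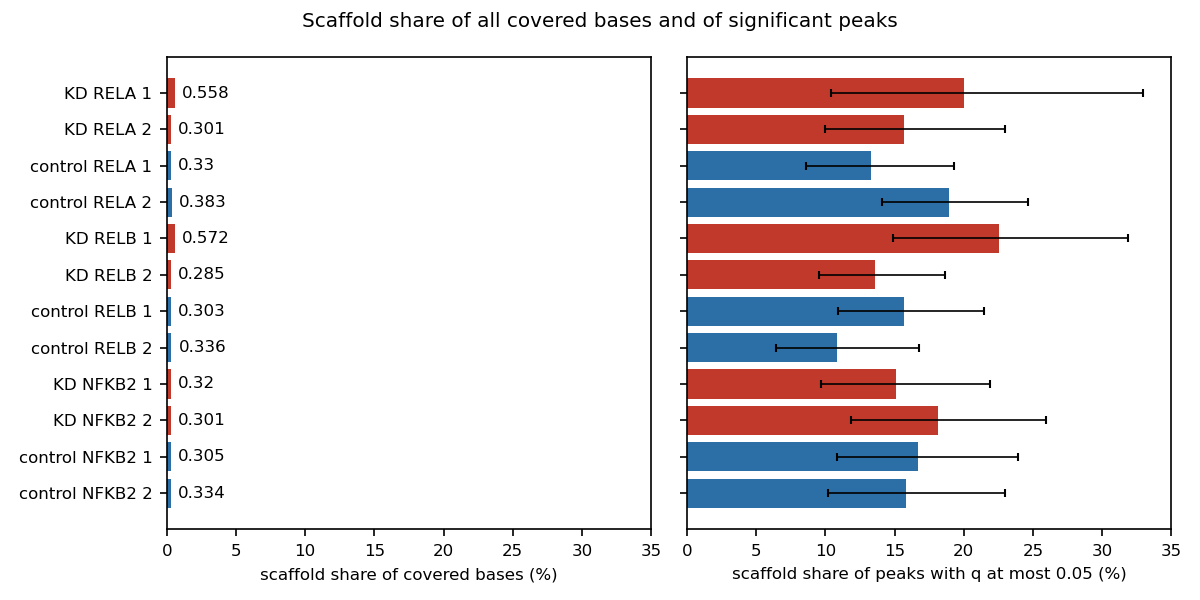
Scaffold share, in percent, of covered bases (left) and of peaks with q at most 0.05 (right) in each library, with red bars for DAB2IP knockdown (KD), blue bars for control and the replicate number after the antibody; error bars on the right are exact 95% binomial intervals, and the left panel has none. All bars on the left are below 0.6%, while those on the right run from 10.8% to 22.5%.

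Measured within each library, 0.984 to 5.87% of scaffold peaks and 0.0156 to 0.105% of chromosome peaks passed q at most 0.05. The difference was 1.81 ± 1.32 percentage points (mean ± SD, n = 12), it was above 0 in 12 of 12 libraries, and an exact two-sided permutation test by sign flips gave p = 0.00049, the smallest that 12 libraries allow. The 12 libraries come from 4 preparations, and over 4 preparation means the smallest attainable p, 0.13, was reached. The percent of reach under peaks did not set scaffolds apart in the same way: it was 0.794 to 4.9% on scaffolds and 0.484 to 5.35% on chromosomes, lower on scaffolds in 9 of 12 libraries. The mean log2 ratio of scaffolds over chromosomes was 0.0063 (exact two-sided permutation p = 0.95), with library values from −0.29 to 0.72. Values above 0 came from the 2 short lists and control RELA replicate 2. Scaffold and chromosome percents were 1.12% and 0.699% in knockdown RELA replicate 1, and 0.794% and 0.484% in knockdown RELB replicate 1. In control RELA replicate 2 they were 4.26% and 3.89%. The mean near 0 sets these against lower values in the other libraries, and does not show equal cover. Among the 20000 entries with the smallest p-values of each list, that log2 ratio was 1.5 (exact permutation p = 0.00049).

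The q-passing scaffold peaks stood on more fragments, over a higher background and at a lower fold. Their median summit held 46 to 89 fragments, against 9 to 38 for q-passing chromosome peaks of the same lists. The median local background at these summits was 12.7 to 33.1 fragments on scaffolds and 0.71 to 10.4 on chromosomes, and the median fold enrichment 2.25 to 3.48 on scaffolds and 3.6 to 5.25 on chromosomes. The order was the same in 12 of 12 libraries for each of these measures. Over the 12 lists, 61 scaffold summits and 240 chromosome summits held 200 fragments or more, and 53 of the 61 were on KI270438.1. The highest summit in any list held 294 fragments, which is also 2 times the shortest interval of 147 bp. Whether the number of fragments per position was limited in processing was not tested.

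These peaks sat on few scaffolds. Of the 150 scaffolds, 31 held at least 1 peak with q at most 0.05 in some library, and 8 of them held 211 of the 291 (72.5%) on 7.06% of the scaffold reach. Those 8 were KI270438.1 with 40, KI270709.1 with 38, GL000225.1 with 32, KI270733.1 with 25, GL000216.2 and GL000226.1 with 23 each, KI270466.1 with 17 and KI270467.1 with 13. KI270709.1 and GL000225.1, unlocalised scaffolds of chromosomes 1 and 14, were named here after their values were seen. Without the 8 scaffolds the difference from chromosomes was 0.53 percentage points, above 0 in 12 of 12 libraries (exact permutation p = 0.00049), a choice also made after the values were seen. GL000214.1 also had 13, and the place among the 8 went to KI270467.1 for its higher mean covered bases. GL000224.1 followed with 11, and KI270744.1 and GL000220.1 with 10 each. Of these, GL000220.1 alone was in a fixed group, and the others were named after their values were seen.

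**Figure D2:**
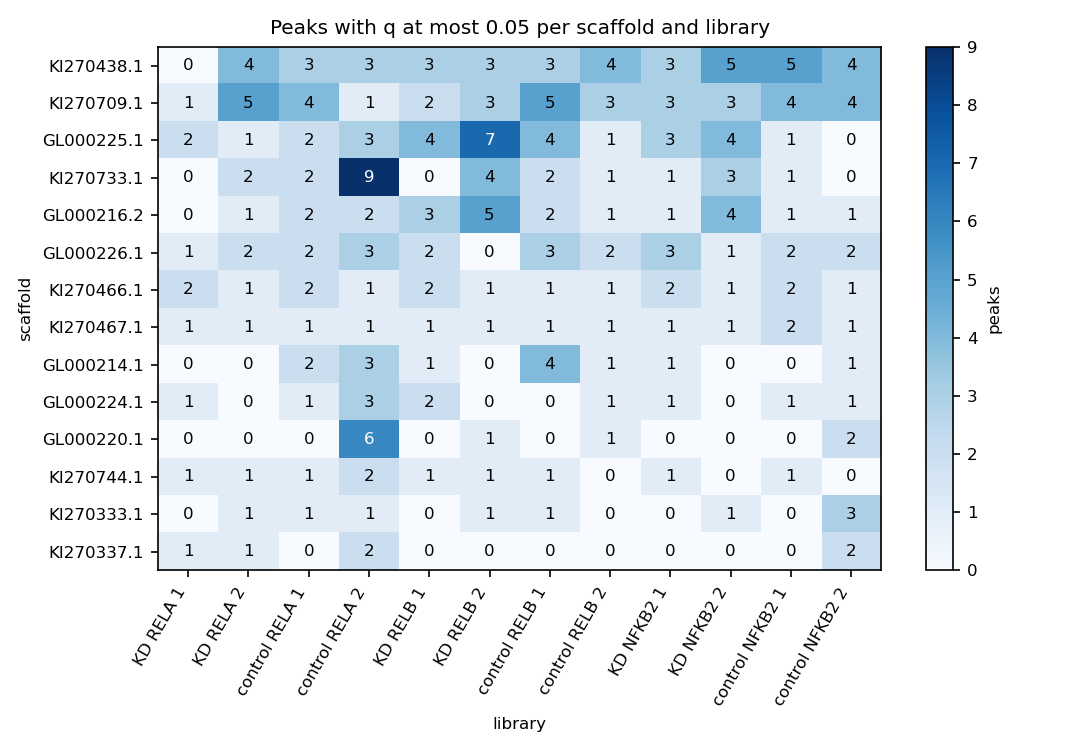
Number of peaks with q at most 0.05 on the 14 scaffolds with the most such peaks (rows) in each of the 12 libraries (columns, KD for DAB2IP knockdown), darker for more. KI270438.1, KI270709.1, GL000225.1, GL000216.2, GL000226.1, KI270466.1 and KI270467.1 have counts above 0 in 11 or 12 columns. The largest single count is 9, for KI270733.1 in control RELA replicate 2.

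The 4 satellite scaffolds were not alike. KI270438.1 had q-passing peaks in 11 libraries, with 3 to 5 in each and 0 in knockdown RELA replicate 1. GL000216.2 and GL000226.1 had them in 11 libraries each. KI270442.1, the one with the second-highest mean covered bases of all scaffolds (13585 bp per library), had none in any library, and its highest −log10 q was 0.51. Its 659 peaks covered 0.733 to 5.15% of its reach. Together the satellite scaffolds had 86 q-passing peaks of 1126, a median over libraries of 7.09% and a range of 1.79 to 22.9%, against a median of 0.873% on the 144 scaffolds outside both fixed groups.

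GL000226.1 differed by preparation. Peaks covered 2.26%, 0% and 2.25% of its reach in the RELA, RELB and NFKB2 libraries of knockdown preparation 2. In the other 9 libraries they covered 7.13 to 11.5%, so the 2 ranges did not overlap. Knockdown preparation 1 was at 10.8% for RELA, 7.44% for RELB and 7.13% for NFKB2, above both RELA control libraries and below both control libraries of RELB and of NFKB2. So both knockdown libraries lay below both controls for RELB and NFKB2, and on either side of them for RELA. By covered bases the same order was met on 34.1% of scaffolds for RELB and 25.7% for NFKB2. The values here rest on 0 to 6 peaks per library. At bases 1679 to 2140 of this scaffold the highest −log10 q, 12.8, was in knockdown NFKB2 replicate 2.

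On the ribosomal scaffolds 35 of 770 peaks passed q at most 0.05, and 15 of the 35 were in 1 library, control RELA replicate 2, where they were 16.9% of its peaks there. In the other 11 libraries the share was 0 to 8.06%. The RefSeq table of GRCh38.p14 gives RNA45SN5, a 45S pre-ribosomal RNA gene, at bases 105424 to 118780 and RNA45SN4 at bases 122273 to 135645. The table does not name their scaffolds, and they were placed on GL000220.1 and KI270733.1 by general knowledge. The RNA45SN5 unit held no called base in any of the 12 libraries, while the rest of GL000220.1 was covered at 0.947 to 6.67%. The RNA45SN4 unit was covered at 2.56 to 17.1%, with the highest value in control RELA replicate 2, and the rest of KI270733.1 at 1.75 to 7.19%. The unit was above the rest in 8 of 12 libraries. Units of this family are close copies, so reads could be assigned to either scaffold or dropped, and how the mapping treated such reads is not given in the sources used here. Of the q-passing peaks on KI270733.1, 5 touched the unit and 20 did not, and all 10 on GL000220.1 lay outside its unit. The rest of each scaffold was not checked for further copies, so it is not known to be free of ribosomal DNA.

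Called bases recurred more often on scaffolds than on chromosomes. Peaks of any library covered 2802 kb of the scaffolds, of which 62.0% was called by a single library, 1.15% by 6 or more and 1048 bases by all 12. On the chromosomes 74.3% of the covered bases were called by a single library, 0.0473% by 6 or more and 4182 bases by all 12. As a share of covered bases, bases called by 6 or more libraries were 24.3 times as frequent on scaffolds, and bases called by all 12 were 95.8 times as frequent. No test was made of these shares. Of the 1048 bases called by all 12, 387 lay on KI270467.1 and 382 on KI270466.1, which reach only 3870 and 1185 bp. The other 279 lay elsewhere. With q-passing peaks alone, 543 scaffold bases were called by all 12. The count of scaffold bases called by all remaining libraries can only stay or rise when a list is left out. It was 2382 without control RELB replicate 1 and 2052 without knockdown RELA replicate 1. Leaving out any other library moved this count by less than 1.5 times.

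**Figure D3:**
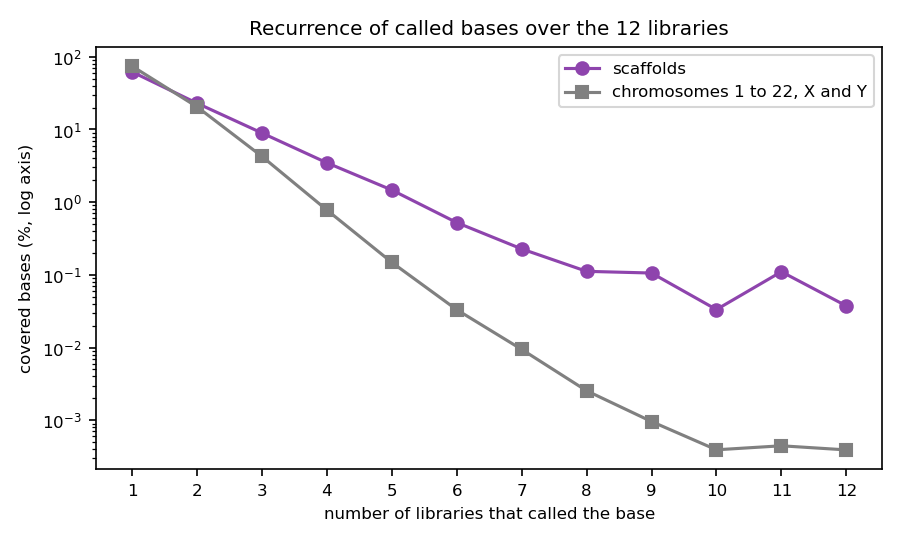
Percent of all covered bases (log axis) called by exactly 1 to 12 of the libraries, for scaffolds (circles) and chromosomes (squares). Both fall steeply, from 62.0% and 74.3% at 1 library, and the scaffold line lies above from 2 libraries on, ending at 0.0374% against 0.00039% at 12.

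Joining overlapping peaks of the 12 lists (by at least 1 bp) gave 8211 regions on scaffolds, of which 3984 came from a single library and 33 from 10 or more. Only 101 had a q-passing peak in at least 1 library, and 54 of those had one in exactly 1. At the other end, 10 regions passed in 9 libraries or more. Genes were not assigned to these regions, because the gene table does not name scaffolds.

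Of the 4 regions called in all 12 libraries, the one on KI270467.1 had the highest lowest −log10 q. It covered bases 1934 to 3870, or 50% of a reach of 3870 bp that by definition ends with this region. Its best peak had a −log10 q of 18.9 and 57.6 in the knockdown RELA libraries (replicates 1 and 2), 12.7 and 72.9 in control RELA, 11.5 and 44.9 in knockdown RELB, 4.01 and 19.9 in control RELB, 12.4 and 54.1 in knockdown NFKB2 and 11.9 and 94.4 in control NFKB2. All 6 libraries numbered 2 were above all 6 numbered 1, in both conditions and with each antibody. The labels do not say what a replicate number stands for. The summit held 136 to 240 fragments, with overlapping ranges for the numbers. The local background was 66.9 to 77.0 fragments in the libraries numbered 1 and 26 to 51.2 in those numbered 2, and its part in the q-values was not tested.

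The region at bases 37 to 1185 of KI270466.1 passed q at most 0.05 in all 12 libraries as well, with a lower minimum and a higher median and maximum −log10 q. The −log10 q was 5.55 and 43.6 in knockdown RELA, 19.0 and 104.7 in control RELA, 12.3 and 42.7 in knockdown RELB, 5.76 and 19.8 in control RELB, 3.58 and 28.4 in knockdown NFKB2 and 22.1 and 89.5 in control NFKB2. Here too the value of replicate 2 was the higher in each of the 6 groups, although the ranges of the numbers overlapped between 19.8 and 22.1. Peaks covered 34.0 to 64.1% of the scaffold's reach, which ends with this same region, in the libraries numbered 1. In those numbered 2 they covered 88.1 to 97.0%. Its fold enrichment, 2.45 to 11.5, reached the highest value of any scaffold.

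The other 2 regions called in all 12 were at bases 149490 to 149749 of GL000216.2 and 868 to 1304 of KI270333.1. The first passed in 11 libraries, with a −log10 q of 2.14 to 12.6 in those and 0 in knockdown RELA replicate 1. Its summit held 165 to 234 fragments over a background of 74.7 to 144 fragments, a fold enrichment of 1.47 to 2.19. The second passed in 7 libraries, with a median −log10 q of 1.46 and a maximum of 15.2 in control RELA replicate 2, on 13 to 35 fragments.

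Another 5 regions passed in 11 libraries and were named after their values were seen. On KI270709.1, bases 13814 to 14003 had a −log10 q of 9.57 to 21 in the 11 libraries that called it, and no call in control RELA replicate 2. Among the 10 regions that passed in 9 or more libraries, these 190 bp had the lowest ratio of highest to lowest −log10 q, and their fold enrichment was 2.16 to 2.85. On KI270438.1, bases 109171 to 110640, 104631 to 105091 and 103943 to 104397 were called in every library except knockdown RELA replicate 1, with summits of 210 to 288 fragments. The highest −log10 q of each was in knockdown RELA replicate 2, at 36.6, 24.5 and 27.5. At each region this library also had the lowest local background (67.0, 91.6 and 110.7 fragments) among the libraries that called it. Its summit held the fewest fragments of those libraries at each region. The part of the background in these q-values was not tested. On GL000226.1, bases 1679 to 2140 passed everywhere except knockdown RELB replicate 2, with a −log10 q of 1.64 to 12.8.

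**Figure D4:**
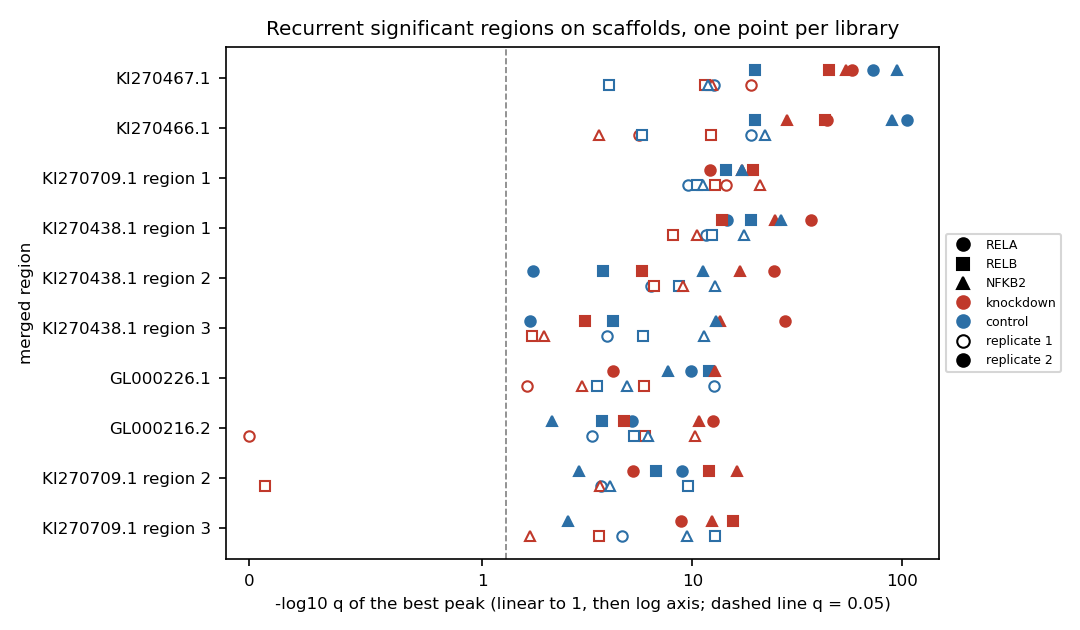
The −log10 q of the best peak in each library (axis linear to 1 and logarithmic above, dashed line at q = 0.05) at the 10 merged regions that passed in 9 or more libraries; circles, squares and triangles are RELA, RELB and NFKB2, red is knockdown, blue is control, and open and filled symbols are replicates 1 and 2. At KI270467.1 all filled symbols (19.9 to 94.4) lie to the right of the open ones (4.01 to 18.9), while KI270709.1 region 1 spans 9.57 to 21 with no such gap.

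Libraries resembled each other by preparation more than by antibody or condition. The libraries of a preparation also share an input by their labels, and its part in the resemblance was not tested. The Jaccard index, bases called in both libraries of a pair over bases called in either, averaged 10.4% for pairs of the same preparation (12 pairs, 6.48 to 12.9%) and 5.80% for replicates of a group (6 pairs, 3.37 to 7.93%). It averaged 5.62% for pairs of the same antibody in the other condition and 5.63% for pairs that shared neither antibody nor preparation. On the chromosomes the same classes averaged 4.05%, 2.25%, 2.31% and 2.18%. On scaffolds the separation by preparation, the mean index within less the mean between, was 0.0475 (exact one-sided permutation p = 0.0017, the smallest the permutations allow). Without knockdown preparation 1, which holds the 2 short lists, it was 0.0458 (exact permutation p = 0.028, again the smallest possible). The separation by antibody was −0.011 (exact one-sided permutation p = 0.24), and lies below 0 because pairs of a preparation always differ in antibody. By condition, with pairs of the same preparation left out, it was 0.0035 (exact one-sided permutation p = 0.33, the smallest of the 3 possible splits).

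**Figure D5:**
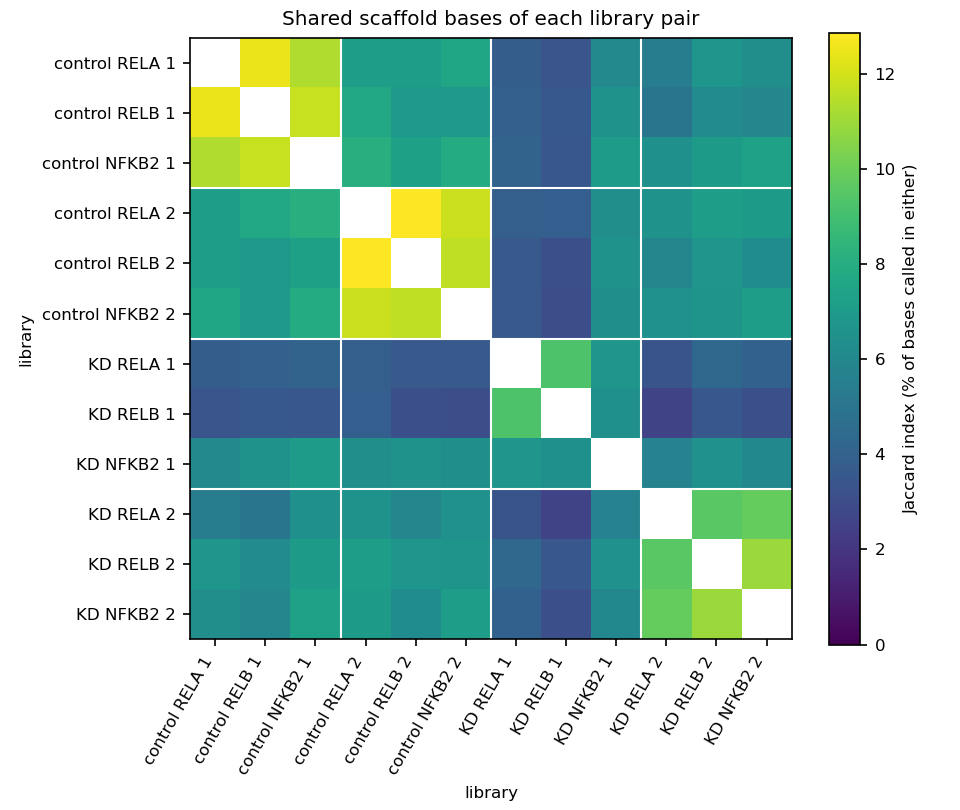
Jaccard index in percent of the scaffold bases called in each pair of libraries (KD for DAB2IP knockdown), with libraries ordered by preparation and white lines between the 4 preparations; the diagonal is left blank. The brightest blocks lie within preparations, 11.3 to 12.9% in the control preparations, and the darkest cells join the 2 short lists with libraries of other preparations.

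The scaffold share did not separate DAB2IP knockdown from control. For RELA the knockdown over control ratio of geometric means was 1.15 (log2 0.20, exact two-sided permutation p = 1), for RELB 1.27 (log2 0.34, p = 1 by the same exact test) and for NFKB2 0.973 (log2 −0.040, exact p = 0.67). With 2 against 2 libraries the smallest p is 0.33, so these tests could not reach 0.05. The RELA and RELB ratios rested on the short lists: without knockdown RELA replicate 1 the log2 ratio was −0.24, and without knockdown RELB replicate 1 it was −0.16. The NFKB2 log2 ratio turned to 0.36 with no limit on interval length, and to 0.0033 and 0.025 without knockdown or control NFKB2 replicate 2. Between antibodies, RELA libraries had a mean share of 0.393% ± 0.115, RELB libraries 0.374% ± 0.134 and NFKB2 libraries 0.315% ± 0.0149 (SD, n = 4 each). The 3 pairwise differences gave exact unpaired permutation p-values of 0.71, 0.26 and 0.69 for RELA against RELB, RELA against NFKB2 and RELB against NFKB2. Each was 0.71 after Benjamini-Hochberg adjustment over the 3. With the preparation as a replicate block the exact permutation p-values were 0.25, 0.25 and 0.75, and 4 pairs allow none below 0.13.

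Regions called in both libraries of 1 condition and neither of the other were counted for each antibody, with no test. For RELA, 59 of 4726 scaffold regions were knockdown-only (1.25%, beside 0.566% of chromosome regions) and 254 control-only (5.37%, beside 2.44%). For RELB, 42 of 4302 were knockdown-only (0.976%, beside 0.347%) and 5.14% were control-only (beside 2.96%). For NFKB2, 147 of 5703 were knockdown-only (2.58%, beside 2.09%) and 255 control-only (4.47%, beside 2.93%). Both directions were more frequent on scaffolds than on chromosomes for each antibody, and the control-only counts were the larger on both. The 2 short lists limit what could be called in both knockdown libraries for RELA and RELB.

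Regions whose best peak passed q at most 0.05 in both libraries numbered 0 of the RELA and RELB knockdown-only regions and 1 of the NFKB2 ones (0.68%), beside 0.0108%, 0.0379% and 0.00667% of the knockdown-only regions on chromosomes. The NFKB2 region, at bases 99268 to 99433 of GL000225.1, had a −log10 q of 8.92 and 10.9 and summits of 80 and 89 fragments. Of the control-only regions 3 passed in both RELA libraries, 1 in both RELB and 1 in both NFKB2 libraries (1.18%, 0.452% and 0.392%), beside 0.00755%, 0.00444% and 0.00159% on chromosomes. The chromosome shares rest on 1 to 3 regions each. By the lower of the 2 values, the leading ones were bases 6556 to 6762 of GL000224.1 for RELA (−log10 q 2.95 and 8.35), bases 158648 to 158807 of KI270733.1 for RELB (1.76 and 2.5) and bases 10873 to 11062 of KI270709.1 for NFKB2 (4.49 and 4.68). By the same measure the leading RELA knockdown-only region, bases 131670 to 132008 of GL000225.1, had values of 0 and 4.18, and the RELB one, bases 25 to 241 of KI270336.1, 0 and 6.31.

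By scaffold, both control libraries covered more bases than both knockdown libraries on 37 of 143 scaffolds for RELA (25.9%), 46 of 135 for RELB (34.1%) and 37 of 144 for NFKB2 (25.7%). The shares of 100 kb chromosome bins that met the same rule were 16.4%, 31.4% and 24.4%. Both knockdown libraries covered more on 3 scaffolds for RELA (2.1%), 4 for RELB (2.96%) and 16 for NFKB2 (11.1%), beside 0.0448%, 0.0138% and 8.65% of bins. Bins and scaffolds differ in length, so the shares are only a scale. These counts moved with the size of the lists: with covered bases taken as a percent of the library total, control was higher on 27, 20 and 20 scaffolds and knockdown on 15, 20 and 19 for RELA, RELB and NFKB2, so that the RELB counts were equal.

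The largest such differences were on the scaffolds with most covered bases. For RELA, KI270743.1 was covered over 2114 and 10883 bp in the knockdown libraries and 13065 and 13459 bp in the control libraries. For RELB, KI270728.1, an unlocalised scaffold of chromosome 16 and the longest by reach, was covered over 1834 and 19672 bp in knockdown and 24710 and 24563 bp in control. For NFKB2, GL000008.2, assigned to chromosome 4, was covered over 7125 and 13211 bp in knockdown and 14461 and 19160 bp in control. In all 3 the first knockdown library was the lowest, and the second was nearer to the control libraries than to the first. In the other direction, KI270737.1 of chromosome 22 was covered over 5621 and 7642 bp in knockdown NFKB2 and 4332 and 3648 bp in control NFKB2. A single interval of 4422 bp (fold enrichment 1.81, −log10 q of 0) made up most of the 7642 bp in knockdown NFKB2 replicate 2. The order of that library against the controls rests on it. KI270756.1 was covered over 604 and 1306 bp in knockdown RELB and 317 and 436 bp in control RELB. KI270518.1 was covered over 344 and 441 bp in knockdown RELA and had no peak in either control RELA library.

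Covered bases and q-passing peaks picked out different scaffolds. The 10 with the highest mean covered bases were KI270728.1 (22478 bp per library), KI270442.1, KI270719.1, KI270725.1, GL000008.2, KI270722.1, KI270712.1, KI270743.1, KI270733.1 and KI270742.1 (8734 bp). KI270733.1 alone of these had more than 2 q-passing peaks over the 12 libraries, and KI270442.1, KI270719.1, KI270722.1 and KI270743.1 had none. On KI270466.1 and KI270467.1, which reach 1185 and 3870 bp, the median library covered 76.1% and 46.6%. Scaffolds with a reach under 5 kb numbered 66 and held 47 of the 291 q-passing peaks, 30 of them on these 2. The 53 scaffolds with a reach over 50 kb held 218.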

How the data were processed

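Reads of both ends were mapped for the authors with BWA 0.7.12 to hg38, and MACS2 2.1.0 called peaks library by library (submitters' notes). The deposited lists hold positions in bp, a score, the fold enrichment (a ratio over the peak caller's local background), and −log10 p-values and q-values. The members and lists were chosen with earlier results of these data known.

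Intervals over 5000 bp (54 on scaffolds) were left out, and repeated intervals (191) were counted once. Fragments at a summit were solved from fold and p-value, which gave a whole number for 100% of scaffold peaks in each library (tolerance 0.001 on −log10 p). The solution included a scale on fragments: 0.910 in knockdown RELA replicate 1, 0.982 in knockdown RELB replicate 1 and 1 in the other libraries. Fragment numbers are given unscaled and local background in scaled units. Jaccard indices, exact permutation tests and overlaps were computed in Python 3.11.15 with numpy 2.4.6, pandas 2.3.3 and scipy 1.17.1, after tests on simulated peaks. Scaffolds named were those with most bases called in all 12 libraries (only 4 had any), the 10 with most covered bases, the ribosomal and satellite groups and, per antibody, the largest non-overlapping change each way; others are marked as named after their values were seen. Over 72 scaffolds with at least 1000 mean covered bases, deviations from the group mean correlated at 0.22 to 0.48 between antibodies of a preparation. The antibody p-values with the replicate block use this pairing. Those given first, and their adjustment, are unpaired. Between conditions the deviations correlated at −0.14 to 0.13, and the shared number was not taken as a pairing.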

Additional observations from a re-analysis of the deposited data

Results flagged for a closer look

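Intervals over 5000 bp, which the comparisons do not use, were listed on scaffolds in 2 knockdown libraries and in no control library. On chromosomes the same 2 lists also lost the most entries to the length limit and the removal of repeats together. Their entries fell from 688864 to 687503 (RELA) and from 667097 to 665703 (NFKB2), beside 708808 to 708764 in control NFKB2 replicate 1. So the long intervals cannot be read as particular to scaffolds. Knockdown RELA replicate 2 listed 28, covering 514.7 kb, and knockdown NFKB2 replicate 2 listed 26, covering 605.1 kb, each more than the 479.2 and 467.4 kb under the shorter peaks of the same list. They lay on 13 scaffolds, 23 of them on KI270728.1, where the longest was 146.7 kb. Each had a −log10 q of 0, with a fold enrichment of 1.73 to 2.89. The nearest interval inside the limit was 4532 bp long and the nearest outside 5093 bp, both in knockdown NFKB2 replicate 2 and both with a −log10 q of 0.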

How the results depend on the processing

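Of 157 recomputed values, 125 kept their direction and their side of the threshold or stayed within 1.5 times. The log2 share ratio of knockdown over control turned to −0.32 for RELA with the 20000 smallest p-values and to 0.36 for NFKB2 with no limit on interval length. Leaving out 1 library gave −0.24 to 0.65 (RELA), −0.16 to 0.84 (RELB) and −0.11 to 0.025 (NFKB2). RELB against NFKB2 turned to −0.045 with q-passing peaks alone and to −0.011 with no length limit, and ran from −0.033 to 0.30 without 1 library. RELA against RELB ran from −0.095 to 0.31. With the replicate block the ratios kept their size, since the groups are balanced (log2 0.20 for RELA, 0.34 for RELB and −0.040 for NFKB2 between conditions), and it changed no call. The log2 ratio of sequence under peaks was −0.011 without ribosomal scaffolds, −0.058 to 0.033 without 1 library, and 1.5 with the 20000 smallest p-values, where it passed the threshold. The excess of q-passing peaks was 1.81 points over 4 preparation means (exact permutation p = 0.13) and 1.45 to 1.88 without 1 library. Separation by condition turned to −0.032 with q-passing peaks and −0.0021 with the 20000 smallest p-values. Bases called in all libraries numbered 543 with q-passing peaks and 1048 to 2382 without 1 library. With q-passing peaks alone, knockdown-only regions numbered 0, 0 and 1 and control-only regions 5, 1 and 2 for RELA, RELB and NFKB2. With covered bases as a percent of the library total, scaffolds with both knockdown libraries higher numbered 15, 20 and 19 for RELA, RELB and NFKB2, and with both control libraries higher 27, 20 and 20. The causes were not tested. Removing the 8 scaffolds and knockdown preparation 1 were choices made after seeing the data. Read depth per library is not given in the sources used here, and its part in the short lists was not tested.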
